A study of Mus musculus with 9 samples.

Results

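Amino acid transporter genes of the families Slc1a, Slc3a, Slc7a, Slc36a, Slc38a and Slc43a were compared between mammary tumours grown from 3 mouse cell lines, NDL, Met1 and SSM2. Members were all genes whose single annotated symbol starts with 1 of these 6 family names followed by a digit, with the feature of highest mean over the 9 arrays standing for each gene. This gave 43 members of 19938 genes. Of these, 42 are transporters or their partner chains, and the remaining 1, Slc7a6os, is a neighbour of Slc7a6 on the opposite strand that only shares its name. Each line contributed 3 samples of total RNA from snap-frozen tumours, measured on 1 array per sample (Affymetrix Mouse Gene 1.0 ST). All tumours grew in the same setting: cells were injected on both sides into uncleared fat pads of the mammary gland, the hosts being FVB/NJ females (strain FVB/N in the sample labels) aged 6 to 8 weeks, and were collected at 5 to 10 mm width. No agent is named for any group, and the labels do not give the lines' alleles. The lines are known to differ in origin: the polyoma middle T antigen gave rise to Met1 and activated ErbB2 to NDL, while SSM2 keeps hormone receptors. Each line is a single transplantable culture, so a difference between lines is not a test of its oncogene.

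Amino acids cross membranes through carriers that differ in substrate, in the ion that drives them and in their partner chain. Light chains of the SLC7 family reach the cell surface bound to a heavy chain of the SLC3 family and mostly exchange 1 amino acid for another, so they depend on other carriers to fill the cell with exchange substrate. Several sodium-coupled carriers of the SLC1 and SLC38 families do that filling. Some SLC36 carriers move amino acids with protons out of lysosomes and into cells. Of the SLC43 family, LAT3 and LAT4 let large neutral amino acids run down their gradient. In the mammary epithelium these carriers supply milk protein synthesis, and in tumours leucine and glutamine uptake is known to feed the growth kinase mTORC1.

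Of the 43 members, 16 (37.2%) differed between the lines in a moderated F-test (limma, Benjamini-Hochberg adjusted p under 0.05 over all genes), against 25.1% of all genes, and the same 16 genes were those called in at least 1 contrast between lines. Between NDL and Met1, 6 members were higher and 8 lower in NDL (32.6% called), against a background of 19.1% of all genes (8.88% higher, 10.2% lower). Between NDL and SSM2, 6 were higher and 5 lower in NDL (25.6%), against 16.9% of all genes (9.35% higher, 7.52% lower). Between Met1 and SSM2, 6 were higher and 3 lower in Met1 (20.9%), against 11.8% of all genes (7.10% higher, 4.71% lower). The median log2 difference of the members was 0.06, 0.09 and 0.04 in the 3 contrasts, the same to 2 decimals as the median over all genes in each. Contrasts share the arrays of a line, so their counts are not independent of each other. Of the 43 members, 15 were the highest or lowest in 1 line by a call in both contrasts of that line. Highest in NDL were Slc1a1, Slc1a2, Slc7a5, Slc7a7 and Slc43a2, and lowest in NDL were Slc7a2, Slc7a6, Slc36a4 and Slc7a6os. Highest in Met1 were Slc38a3, Slc38a6 and Slc38a10, and lowest there was Slc7a4. Highest in SSM2 were Slc1a3 and Slc7a2, and lowest there were Slc3a2, Slc7a5 and Slc1a2. All-gene shares for these patterns were 5.13% (highest in NDL), 3.59% (lowest in NDL), 4.09% (highest in Met1), 2.18% (lowest in Met1), 1.91% (highest in SSM2) and 2.26% (lowest in SSM2). The number of members with such a pattern was 9 without NDL replicate 1, 8 without Met1 replicate 1, 9 without Met1 replicate 2 and 8 without Met1 replicate 3. Without NDL replicate 3, 10 members were higher in NDL than in Met1 and 10 higher than in SSM2. Without NDL replicate 1, 3 members were lower in NDL than in SSM2, and without Met1 replicate 1 or 3, 3 were higher in Met1 than in SSM2.

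**Figure D1:**
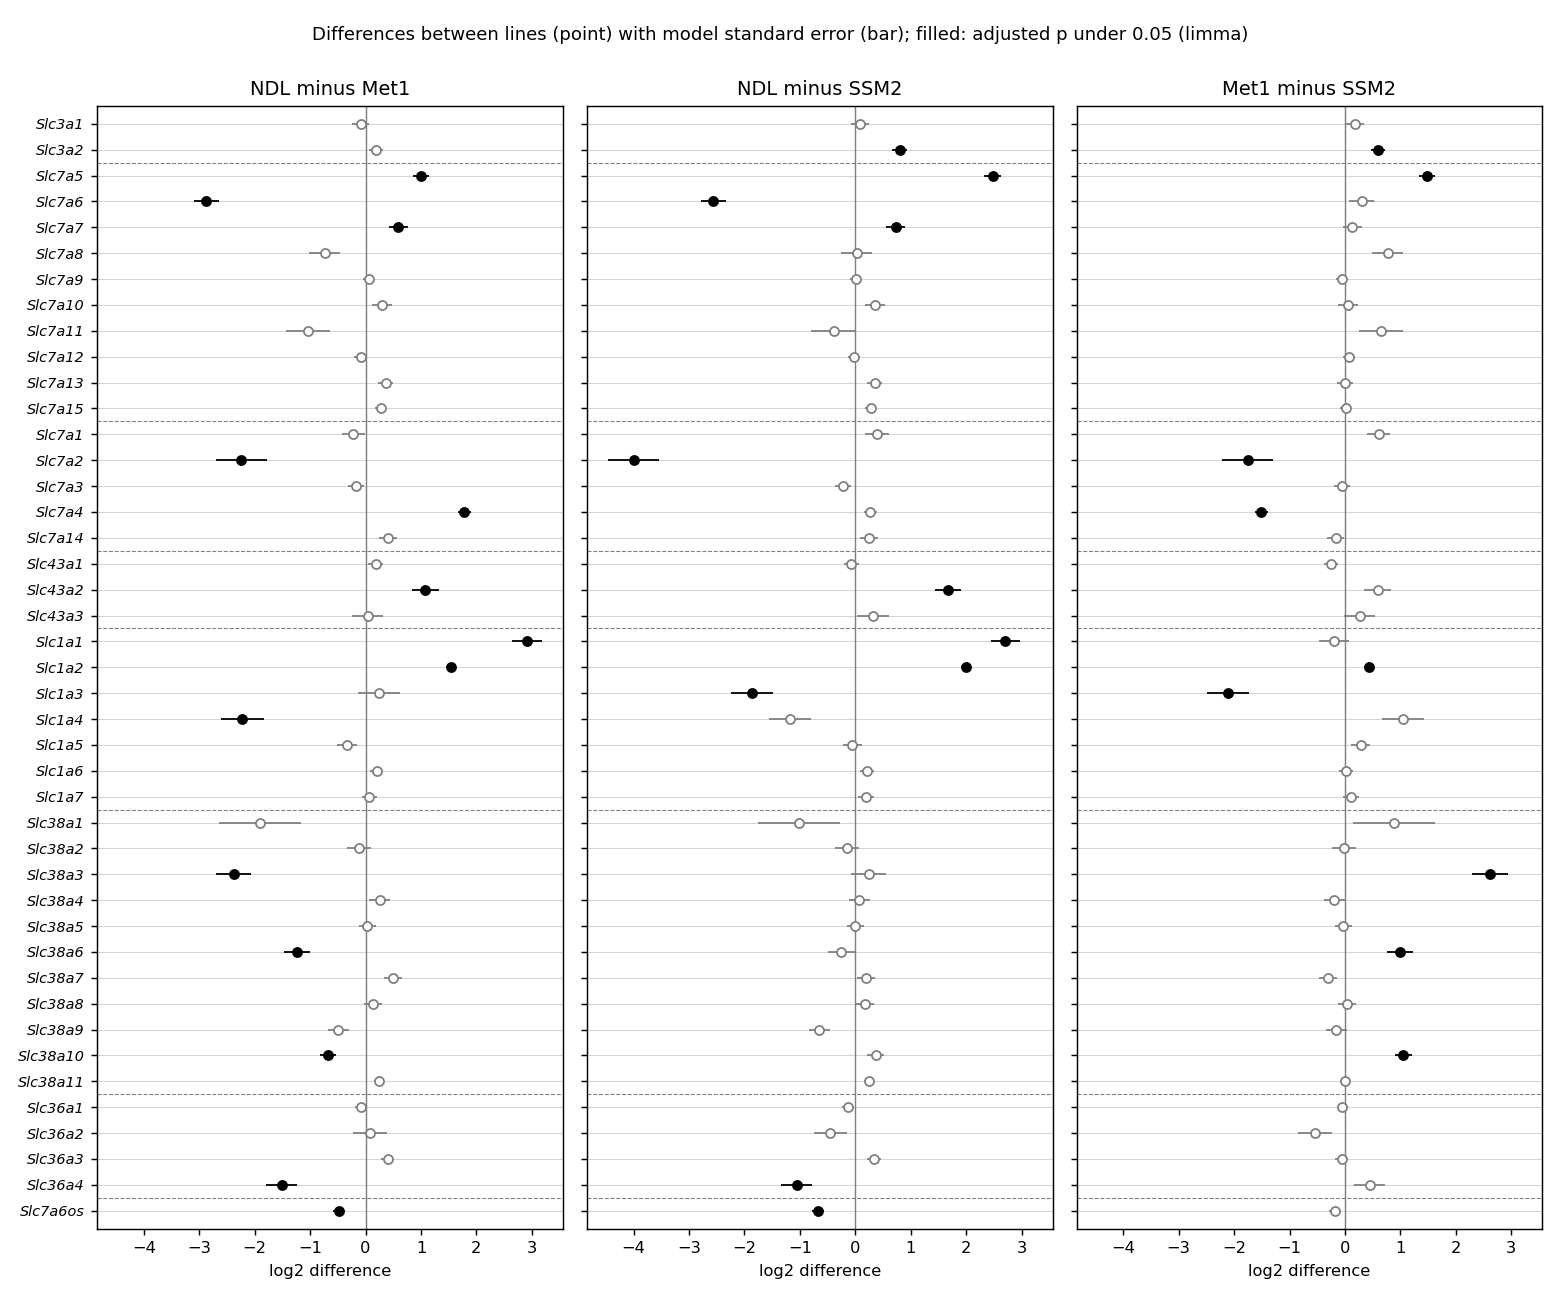
Log2 differences between lines (horizontal axis) for the 43 members (rows, grouped by role with dashed lines between groups), in 3 panels for NDL minus Met1, NDL minus SSM2 and Met1 minus SSM2. Points are the fitted differences of 3 against 3 arrays, bars their standard errors, and filled points pass an adjusted p of 0.05 in limma. Filled points number 14, 11 and 9 in the 3 panels and lie on both sides of 0 in each.

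Signals are log2 RMA values, in which a difference of 1 is a 2-fold difference. Arrays have no read depth, and their number, 3 per line, limits the precision. Whether the samples of a line come from separate animals is not given in the labels, so each p measures the spread between these samples, which may be technical. Correlations over genes, which share their arrays, between samples of 1 line were 0.947 to 0.986 (NDL), 0.987 to 0.995 (Met1) and 0.962 to 0.983 (SSM2). The upper quartile of signal was 7.85 and 7.84 in NDL replicates 1 and 2, against 7.98 to 8.09 in the other arrays. Array weights in limma, lower for arrays that vary more around the fit, were 3.61, 0.51 and 0.24 in NDL replicates 1 to 3. They were 0.47 to 2.67 in Met1 and SSM2, so NDL replicate 3 had the lowest weight. Erbb2 was highest in NDL (11.30 ± 0.08, SD, n = 3, against 7.47 ± 0.28 in Met1 and 8.80 ± 0.16 in SSM2). The 25th percentile of gene means, 4.91, is used below as a guide to background. These are bulk samples, in which fewer cells of a type and less RNA per cell cannot be told apart. The mean of 10 mammary epithelial markers lay between 10.35 and 10.45 in NDL and between 10.48 and 10.59 in SSM2, but at 7.57, 7.77 and 6.07 in Met1 replicates 1 to 3. No marker of this list had a Met1 mean under 4.91. For 10 macrophage markers the NDL means ran from 8.61 to 9.22, those of Met1 from 10.08 to 10.33 and those of SSM2 from 8.50 to 9.84. SSM2 replicates 1 to 3 stood at 10.70, 9.91 and 9.07 for 8 fibroblast markers and at 9.84, 9.15 and 8.50 for the macrophage markers. Those 3 arrays also stood at 7.53, 6.97 and 5.67 for 7 adipocyte markers. Replicate 3 of SSM2 was thus the lowest of its line in all 3 of these lists. It was also lowest there for neutrophil (4.79), T cell (5.09) and endothelial markers (7.07), and highest for epithelial markers (10.59).

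**Figure D2:**
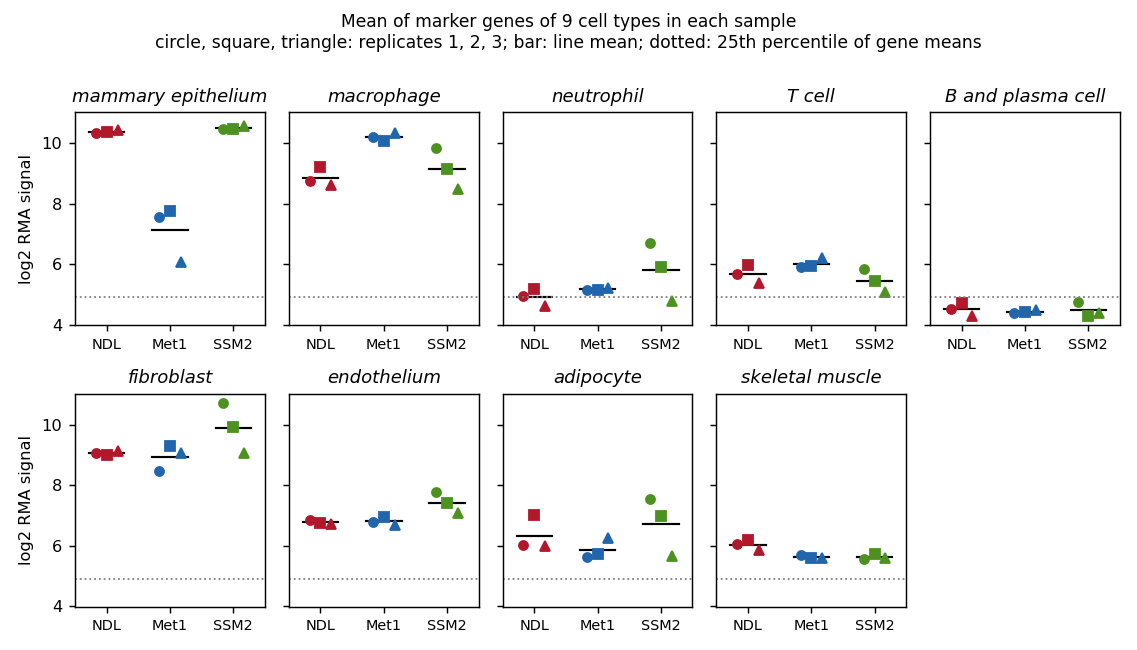
Mean log2 RMA signal (vertical axis) of marker genes of 9 cell types in NDL, Met1 and SSM2 samples; symbols are the 3 arrays of a line, bars the line mean, and the dotted line the 25th percentile of gene means (4.91). The epithelial mean is below 8 in the Met1 arrays and above 10 in all others, and the fibroblast mean spans 9.07 to 10.70 in SSM2.

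The heavy chain Slc3a2 and its light chain Slc7a5, which together form the LAT1 exchanger for leucine and other large neutral amino acids, were both higher in NDL and Met1 than in SSM2. Slc7a5 (feature 10582275) stood at 11.16, 11.00 and 11.24 in NDL, 10.22, 10.02 and 10.15 in Met1, and 8.94, 8.64 and 8.37 in SSM2. No array of 1 line overlapped those of another. The log2 difference was 1.00 for NDL minus Met1 (2.00-fold, SE 0.15, adjusted p = 0.00249), 2.48 for NDL minus SSM2 (5.59-fold, adjusted p = 3.15e-05) and 1.48 for Met1 minus SSM2 (2.79-fold, adjusted p = 0.000609). All 3 calls were kept whichever array was left out, with adjusted p up to 0.0144. Against a minimum difference of 1.5-fold, NDL over Met1 had an adjusted p of 0.171. Slc3a2 (feature 10465772) stood at 11.51, 11.50 and 11.65 in NDL, 11.35, 11.40 and 11.34 in Met1, and 10.97, 10.79 and 10.51 in SSM2. Its arrays kept the order of Slc7a5 without overlap, over a smaller range. It was higher than in SSM2 by 0.80 in NDL (SE 0.13, adjusted p = 0.00412) and by 0.60 in Met1 (SE 0.13, adjusted p = 0.0172), while NDL and Met1 differed by 0.19 (adjusted p = 0.324). The difference between Met1 and SSM2 did not pass without Met1 replicate 1, 2 or 3 (adjusted p from 0.0532 to 0.0679). Slc3a1, the heavy chain of the cystine and dibasic amino acid transporter of kidney and gut, passed in no contrast, with line means of 5.10, 5.19 and 5.00 in NDL, Met1 and SSM2.

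Slc7a6, whose product y+LAT2 is a light chain that exchanges arginine for glutamine and sodium, went the other way. It stood at 6.36, 6.75 and 6.79 in NDL, 9.83, 9.63 and 9.04 in Met1, and 8.91, 9.32 and 9.36 in SSM2 (feature 10574985). All NDL arrays lay more than 2 units under every array of the other lines. NDL minus Met1 was -2.87 (7.29-fold, SE 0.23, adjusted p = 0.000117), NDL minus SSM2 was -2.56 (5.90-fold, SE 0.23, adjusted p = 0.000203), and both calls held in every fit with 1 array left out. Its close relative Slc7a7, which encodes the light chain y+LAT1, was higher in NDL than in Met1 (0.59, adjusted p = 0.0455) and SSM2 (0.73, adjusted p = 0.0239), from NDL arrays of 8.34, 8.31 and 8.34. Its calls are close to the threshold. Against Met1 it did not pass without NDL replicate 1, 2 or 3, Met1 replicate 1, 2 or 3, or SSM2 replicate 2 (adjusted p from 0.0598 to 0.143), nor with an intensity trend (0.0594) or adjustment over the 3 contrasts together (0.0518). Against SSM2 it did not pass without NDL replicate 1 or 2 or SSM2 replicate 2 (0.0632 to 0.0788), nor in a fit of the 2 lines alone (0.0744).

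Slc7a11, the light chain xCT that imports cystine for glutathione synthesis, stood at 4.79, 5.14 and 4.44 in NDL, 5.69, 5.36 and 6.45 in Met1, and 5.99, 5.05 and 4.51 in SSM2. The spread within Met1 and within SSM2 was over 1 unit, and the NDL mean of 4.79 lay under the 25th percentile. The largest difference, NDL under Met1 by 1.04 (SE 0.40), had an adjusted p of 0.113, although the arrays of those lines did not overlap. Among the other light chains, Slc7a8, the LAT2 exchanger, stood at 6.74, 7.14 and 6.35 in NDL and 7.59, 7.25 and 7.61 in Met1 (log2 difference -0.74, adjusted p = 0.102). Slc7a10, a carrier of small neutral amino acids, ranged from 5.11 to 6.05 over the 9 arrays. Slc7a9, Slc7a12, Slc7a13 and Slc7a15 had all 3 line means under 4.91 and passed in no contrast.

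**Figure D3:**
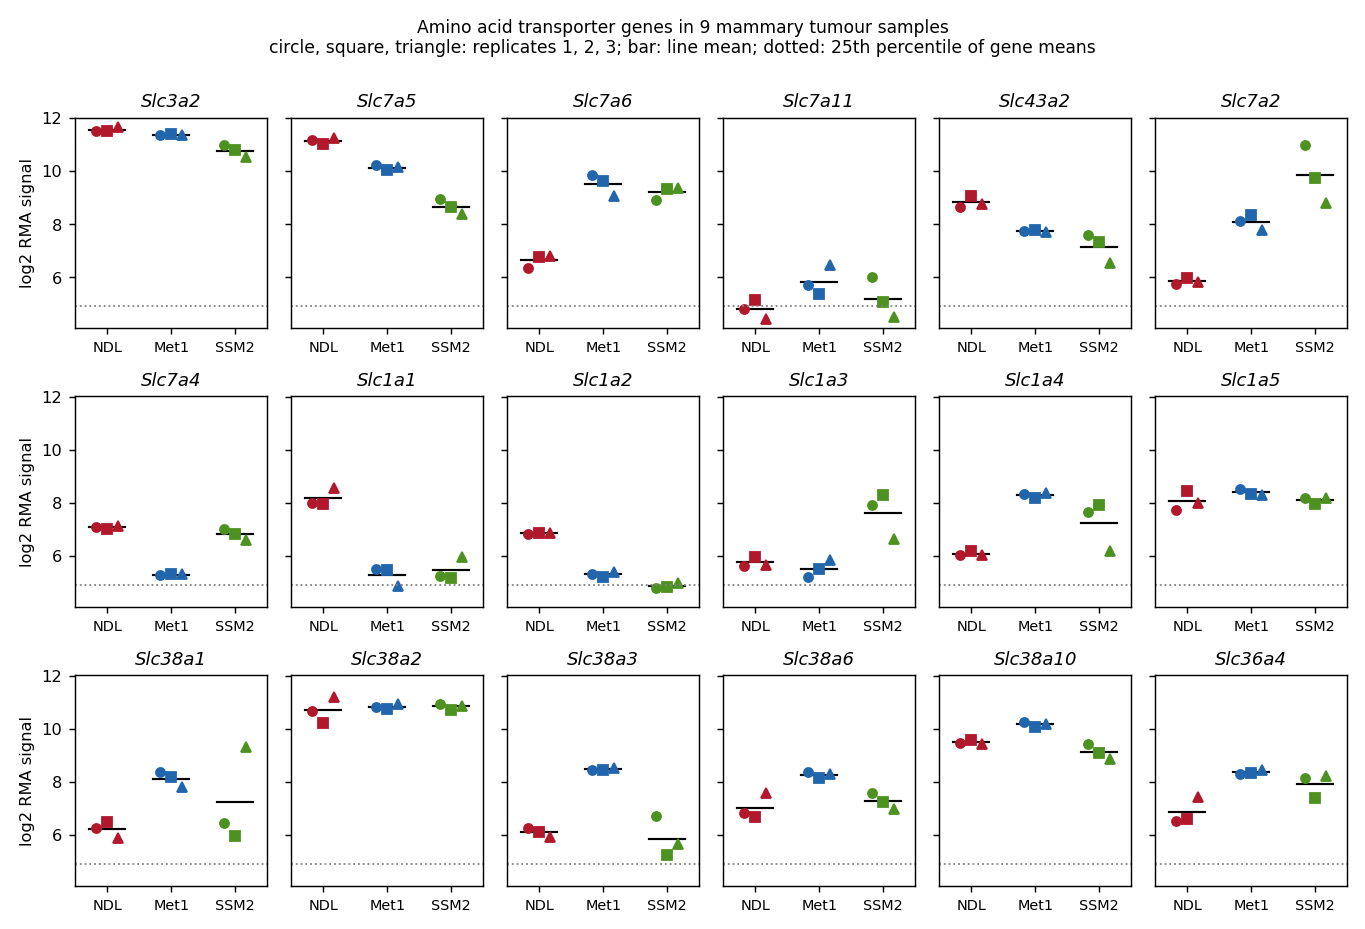
Log2 RMA signal (vertical axis) of 18 transporter genes in the 3 arrays of NDL, Met1 and SSM2; symbols mark replicates 1 to 3, bars the line mean, and the dotted line the 25th percentile of gene means (4.91). Levels can be compared within a gene only. Slc7a5 steps down from NDL over Met1 to SSM2, Slc7a6 and Slc7a2 are lowest in NDL, Slc1a1 and Slc1a2 are highest in NDL, and Slc38a3 is highest in Met1.

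By the F-test, 2 of the 5 members grouped as cationic amino acid carriers were called (40%, against 25.1% of all genes). These were Slc7a2 and Slc7a4, with different patterns. Cationic amino acid carriers bring in arginine, lysine and ornithine, though not every member of the group is known to. Slc7a2, the carrier CAT2 that supplies arginine to nitric oxide synthase and arginase, stood at 5.74, 5.97 and 5.80 in NDL, 8.12, 8.34 and 7.78 in Met1, and 10.97, 9.75 and 8.78 in SSM2 (feature 10571444). The lines did not overlap, and SSM2 spanned over 2 units. NDL was 16.0-fold below SSM2 (log2 difference -4.00, SE 0.46, adjusted p = 0.000815) and 4.74-fold below Met1 (-2.24, SE 0.46, adjusted p = 0.0108). Met1 was lower than SSM2 (-1.75, adjusted p = 0.0426), a call that ended without any 1 array of NDL or Met1 or without SSM2 replicate 2 (adjusted p from 0.0578 to 0.137) and in a fit of the 2 lines alone (0.101). Leaving out NDL replicates 1 and 2 together leaves 1 NDL array, with no spread of its own. NDL minus Met1 was then -2.28, against -2.24. In the SSM2 arrays Slc7a2 ran in the same order as the fibroblast marker mean (10.70, 9.91 and 9.07) and the macrophage marker mean (9.84, 9.15 and 8.50). The neutrophil, T cell, endothelial and adipocyte means fell in that order too. Across lines the macrophage mean was highest in Met1 (10.08 to 10.33), where Slc7a2 was below SSM2. The part of these cells in the result was not tested. Slc7a4, an orphan relative of these carriers, stood at 7.10, 7.01 and 7.13 in NDL, 5.28, 5.31 and 5.31 in Met1, and 7.02, 6.81 and 6.61 in SSM2. Met1 arrays lay close together and more than 1 unit under all others. Met1 was 3.44-fold below NDL (log2 difference of NDL minus Met1 1.78, SE 0.12, adjusted p = 4.71e-05) and lower than SSM2 (-1.51, SE 0.12, adjusted p = 0.000184), with both calls kept in every fit with 1 array left out. The epithelial marker mean was also lowest in Met1 (6.07 to 7.77, against 10.35 to 10.59 in the other lines), and its part was not tested. Slc7a1, the general arginine carrier CAT1, ranged from 7.57 to 8.84 and passed in no contrast, its largest difference being Met1 over SSM2 by 0.61 (adjusted p = 0.115). Slc7a3 had all 3 line means under 4.91, and those of Slc7a14 ran from 4.63 to 5.05. Neither passed in any contrast.

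Slc43a2, which encodes LAT4, a facilitated carrier of leucine, isoleucine, methionine and phenylalanine, was highest in NDL. It stood at 8.66, 9.04 and 8.75 in NDL, 7.74, 7.78 and 7.69 in Met1, and 7.58, 7.33 and 6.54 in SSM2. NDL arrays lay above all others. NDL exceeded SSM2 by 1.67 (3.17-fold, SE 0.24, adjusted p = 0.0028) and Met1 by 1.08 (2.11-fold, SE 0.24, adjusted p = 0.0162). The second call did not pass without NDL replicate 2 or Met1 replicate 1, 2 or 3 (adjusted p from 0.0512 to 0.058). With NDL replicate 3 as the only NDL array, NDL exceeded Met1 by 1.01 and SSM2 by 1.6. Slc43a1 (LAT3) ranged from 5.53 to 6.09 and Slc43a3 from 6.88 to 7.97, and neither passed in any contrast.

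The glutamate carriers of the SLC1 family differed in which line they were highest in. These carriers bring glutamate and aspartate into cells with sodium. Slc1a1 (EAAC1) stood at 8.01, 7.97 and 8.56 in NDL, 5.50, 5.46 and 4.88 in Met1, and 5.26, 5.17 and 5.98 in SSM2. NDL lay about 2 units or more above every other array. It exceeded Met1 by 2.91 (7.49-fold, SE 0.27, adjusted p = 0.000255) and SSM2 by 2.71 (6.57-fold, SE 0.27, adjusted p = 0.000391). Slc1a2 (GLT-1), best known from astrocytes, stood at 6.84, 6.86 and 6.88 in NDL, 5.34, 5.22 and 5.39 in Met1, and 4.80, 4.83 and 4.98 in SSM2. The SSM2 mean of 4.87 lay under the 25th percentile, so the size of its difference from NDL is uncertain. NDL was higher by 1.54 than Met1 (SE 0.09, adjusted p = 3.89e-05) and by 1.99 than SSM2 (SE 0.09, adjusted p = 9.64e-06). These NDL calls of both genes held in every fit with 1 array left out. The smaller difference of Slc1a2 between Met1 and SSM2 (0.44, adjusted p = 0.0186) did not pass without Met1 replicate 1 or 3 or SSM2 replicate 1 or 2 (adjusted p from 0.0543 to 0.0787). Slc1a3 (GLAST) was highest in SSM2, at 7.93, 8.29 and 6.65, against 5.63, 5.98 and 5.66 in NDL and 5.21, 5.51 and 5.83 in Met1. SSM2 replicate 3 was the lowest of its line and still above all other arrays. The log2 differences were -1.87 for NDL minus SSM2 (SE 0.38, adjusted p = 0.0126) and -2.11 for Met1 minus SSM2 (SE 0.38, adjusted p = 0.00865). Without NDL replicate 1 the first had an adjusted p of 0.0532. With NDL replicate 3 as the only NDL array the first difference was -1.96. Fibroblast (10.70 and 9.91), endothelial (7.79 and 7.41) and neutrophil (6.70 and 5.92) marker means were likewise highest in SSM2 replicates 1 and 2. The part of these cells was not tested.

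The 2 neutral carriers of this family, which exchange small neutral amino acids such as alanine, serine and cysteine, did not move together. Slc1a4 (ASCT1) stood at 6.02, 6.20 and 6.03 in NDL, 8.34, 8.20 and 8.38 in Met1, and 7.67, 7.91 and 6.20 in SSM2. SSM2 replicate 3 sat at the NDL level and the other SSM2 arrays near Met1. NDL was 4.66-fold below Met1 (log2 difference -2.22, SE 0.38, adjusted p = 0.00461), a call kept without any 1 array. With NDL replicate 3 as the only NDL array the difference was -2.27. NDL minus SSM2 over all 9 arrays was -1.18 (adjusted p = 0.0685). Slc1a5 (ASCT2), the carrier most often tied to glutamine uptake in tumours, stood at 7.75, 8.45 and 8.01 in NDL, 8.54, 8.35 and 8.30 in Met1, and 8.20, 7.97 and 8.19 in SSM2. Its arrays overlapped between NDL and both other lines, and its largest difference was NDL under Met1 by 0.33 (SE 0.18, adjusted p = 0.238). Slc1a6 and Slc1a7, carriers of brain and retina, ranged from 4.98 to 5.54 and passed in no contrast.

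Among the 11 sodium-coupled neutral carriers of the SLC38 family, 3 (27.3%, against 25.1% of all genes by the F-test) were called, a share near the background, and these 3 were highest in Met1. Slc38a3 (SNAT3), a glutamine, asparagine and histidine carrier of liver and kidney, stood at 8.46, 8.46 and 8.53 in Met1, 6.27, 6.12 and 5.91 in NDL, and 6.71, 5.23 and 5.64 in SSM2. Met1 arrays lay close together and above all others. NDL minus Met1 was -2.38 (5.21-fold, SE 0.32, adjusted p = 0.00149), Met1 minus SSM2 was 2.62 (6.16-fold, SE 0.32, adjusted p = 0.00148), and both calls held whichever array was left out. Slc38a6, an orphan member, stood at 8.36, 8.13 and 8.29 in Met1, 6.82, 6.67 and 7.56 in NDL, and 7.59, 7.23 and 6.99 in SSM2. It was lower in NDL than in Met1 by 1.24 (SE 0.24, adjusted p = 0.00847) and higher in Met1 than in SSM2 by 0.99 (SE 0.24, adjusted p = 0.032). With NDL replicate 3 as the only NDL array the former difference was -0.70. The latter did not pass without NDL replicate 1, Met1 replicate 1, 2 or 3, or SSM2 replicate 2 or 3 (adjusted p from 0.0524 to 0.115). Slc38a10 stood at 10.26, 10.05 and 10.18 in Met1, 9.46, 9.58 and 9.41 in NDL, and 9.41, 9.07 and 8.85 in SSM2. Its Met1 arrays lay above all others, by 1.05 on average over SSM2 (SE 0.15, adjusted p = 0.00284) and 0.68 over NDL (log2 difference -0.68, SE 0.15, adjusted p = 0.0143). The NDL difference did not pass without NDL replicate 1 or Met1 replicate 1 or 3 (adjusted p from 0.0516 to 0.0587). With NDL replicate 3 as the only NDL array it was -0.75. The macrophage marker mean was also highest in Met1 (10.08 to 10.33) and the epithelial mean lowest there, and their part in these 3 results was not tested.

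The best known glutamine carriers of this family were not called. Slc38a2 (SNAT2), which cells raise when starved of amino acids, stood at 10.67, 10.22 and 11.18 in NDL, 10.80, 10.74 and 10.91 in Met1, and 10.92, 10.72 and 10.87 in SSM2. The lines overlapped throughout, and no difference exceeded 0.15 in size (SE 0.21, adjusted p from 0.638 to 0.972). Slc38a1 (SNAT1) stood at 6.27, 6.48 and 5.88 in NDL, 8.35, 8.19 and 7.81 in Met1, and 6.45, 5.95 and 9.30 in SSM2. SSM2 replicate 3 was the highest of all 9 arrays and the other SSM2 arrays were in the NDL range, which left an SD of 1.81 in that line. NDL minus Met1 was -1.91 (SE 0.74, adjusted p = 0.114), the largest difference among the 27 members called in no contrast. Slc38a9, a lysosomal sensor of arginine upstream of mTORC1, stood at 6.66, 6.56 and 7.27 in NDL and 7.63, 7.47 and 7.33 in SSM2 (log2 difference -0.65, adjusted p = 0.0533). Slc38a7, a lysosomal glutamine carrier, was 0.50 higher in NDL than in Met1 (adjusted p = 0.0625). Slc38a5 and Slc38a8 ranged from 5.16 to 5.92, and Slc38a4 and Slc38a11 had all 3 line means under 4.91; none of these 4 passed in any contrast.

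Of the 4 carriers of the SLC36 family, Slc36a4 (PAT4), which transports proline and tryptophan, was lowest in NDL. It stood at 6.53, 6.59 and 7.42 in NDL, 8.30, 8.32 and 8.45 in Met1, and 8.15, 7.37 and 8.20 in SSM2. NDL replicate 3 lay near SSM2 replicate 2, so NDL overlapped SSM2 but not Met1. NDL was 2.84-fold below Met1 (log2 difference -1.51, SE 0.28, adjusted p = 0.00735), or -0.93 with NDL replicate 3 as the only NDL array. It was 2.08-fold below SSM2 (-1.06, SE 0.28, adjusted p = 0.0375), a call lost without NDL replicate 1 or 2, Met1 replicate 1, 2 or 3, or SSM2 replicate 1 or 3 (adjusted p from 0.0593 to 0.132), and in a fit of the 2 lines alone (0.108). Slc36a1, the lysosomal proton-coupled carrier of small neutral amino acids, varied little, from 7.37 to 7.69. Slc36a2 and Slc36a3 ranged from 5.44 to 6.76 and from 4.71 to 5.34, and none of these 3 was called.

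Some members are neighbours on a chromosome. In RefSeq order (GRCm38.p6), Slc7a6 and Slc7a6os are adjacent on chromosome 8, and both were lowest in NDL. Slc7a6os stood at 7.42, 7.39 and 7.41 in NDL, 7.88, 7.90 and 7.89 in Met1, and 7.97, 8.29 and 7.96 in SSM2, so that NDL was lower by a log2 difference of -0.48 against Met1 (adjusted p = 0.0156) and -0.67 against SSM2 (adjusted p = 0.00458). The former did not pass without NDL replicate 1 or Met1 replicate 1, 2 or 3 (adjusted p from 0.0506 to 0.0575). With NDL replicate 3 as the only NDL array, the differences were -0.48 and -0.66. Slc38a1, Slc38a2 and Slc38a4 lie side by side on chromosome 15, as do Slc36a1, Slc36a2 and Slc36a3 on chromosome 11. None of these 6 was called in any contrast or by the F-test, which called 25.1% of all genes.

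Transporters of other families carry amino acids too. Of 29 such genes measured, 2 were higher and 4 lower in NDL than in Met1, 3 higher and 2 lower in NDL than in SSM2, and 3 higher in Met1 than in SSM2, for shares of 20.7%, 17.2% and 10.3% called, close to the 19.1%, 16.9% and 11.8% of all genes. The taurine carrier Slc6a6 was lowest in NDL, at 8.79, 8.89 and 9.02, against 10.73, 10.89 and 10.24 in Met1 and 10.66, 10.88 and 10.18 in SSM2 (log2 difference of NDL minus Met1 -1.72, adjusted p = 0.00108; of NDL minus SSM2 -1.67, adjusted p = 0.00148). The mitochondrial aspartate and glutamate carrier Slc25a12 was lowest in SSM2, under NDL by 1.17 (adjusted p = 0.000528) and under Met1 by 0.95 (adjusted p = 0.00191). The neutral amino acid carrier Slc6a17 was highest in Met1, at 7.56, 7.26 and 8.23 (NDL minus Met1 -1.51, adjusted p = 0.00451; Met1 minus SSM2 2.06, adjusted p = 0.00156). The aromatic amino acid carrier Slc16a10 was higher in Met1 than in NDL (-1.49 for NDL minus Met1, adjusted p = 0.00715), and its difference from SSM2 (1.02, adjusted p = 0.0498) was lost without NDL replicate 1 or 3, Met1 replicate 1, 2 or 3, or SSM2 replicate 2 or 3 (adjusted p from 0.0518 to 0.159). The peptide carrier Slc15a1 was highest in NDL, at 5.93, 5.27 and 5.51, and its 2.64-fold difference from SSM2 (adjusted p = 0.00189) starts from an SSM2 mean near background. Slc6a14, a broad carrier of neutral and cationic amino acids, stood at 4.97, 4.73 and 7.47 in NDL and at or under 3.77 in every other array. The Met1 and SSM2 means, 3.62 and 3.60, and NDL replicate 2 lie under the background guide of 4.91, so the size of its difference is not given. Its calls as higher in NDL (adjusted p = 0.0461 against Met1 and 0.0488 against SSM2) were both lost without NDL replicate 1 or any 1 array of Met1 or SSM2 (adjusted p from 0.0572 to 0.133 and from 0.0654 to 0.12). The count of 2 higher in NDL than in Met1 fell to 1 without any 1 array other than NDL replicates 2 and 3, and the 3 higher than in SSM2 became 5 without NDL replicate 3.

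Shortage of amino acids raises the transcription factor ATF4, which acts on several transporter genes, on asparagine synthetase and on transfer RNA synthetases. Of 32 genes of this response, none was higher and 6 were lower in NDL than in Met1 (18.8% called, against 19.1% of all genes; median log2 difference -0.40, against 0.06 over all genes). In the same fit 4 were higher and 1 lower in NDL than in SSM2 (15.6% against 16.9%; median 0.06 against 0.09), and 6 were higher and none lower in Met1 than in SSM2 (18.8% against 11.8%; median 0.39 against 0.04). Asns, asparagine synthetase, stood at 9.36, 9.75 and 9.21 in NDL, 10.60, 10.46 and 11.22 in Met1, and 10.35, 10.38 and 9.32 in SSM2. NDL lay under Met1 without overlap (log2 difference -1.32, SE 0.32, adjusted p = 0.0211), a call lost without NDL replicate 1 or Met1 replicate 1 or 3 (adjusted p from 0.0522 to 0.077). The tyrosine and isoleucine synthetase genes Yars (-1.28, adjusted p = 0.00515) and Iars (-0.99, adjusted p = 0.0103) were also lower in NDL than in Met1. Vldlr, a lipoprotein receptor that ATF4 is known to raise, was lowest in SSM2, under NDL by 3.47 (adjusted p = 0.00015) and under Met1 by 3.19 (adjusted p = 0.00034). Jdp2, a transcription factor, was 1.02 higher in Met1 than in SSM2 (adjusted p = 0.00354). Atf4 itself ranged from 8.19 to 8.89, with no contrast passing. The 6 lower in NDL than in Met1 became 3 without NDL replicate 1 or Met1 replicate 1 or 3, and the 6 higher in Met1 than in SSM2 became 3 without NDL replicate 1, Met1 replicate 2 or 3, or SSM2 replicate 1. Against SSM2, the 4 higher in NDL became 2 without NDL replicate 1 or 2 or SSM2 replicate 1. The 1 lower gene, Iars (-0.93), was lost without NDL replicate 1 or 2, while 5 genes were lower without NDL replicate 3 and 4 without SSM2 replicate 3. Leaving out SSM2 replicate 3 also made 1 gene lower in Met1 than in SSM2.

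ATF4 binds with a C/EBP partner to a composite element, searched here as TGATGNAAN on both strands, overlaps included, in RefSeq windows of 300 bases (250 before to 50 after a gene's start, GRCm38.p6). It was present in 3.95% of all 32851 windows and in 4 of the 43 windows of members. Counted by gene, which may have several windows, it was present in 4.50% of all genes in the table. Among members it was present in 3 of the 32 with any window, and among response genes in 12 of 27. The response list was written by role and holds known targets, though not only these. The stretches around the matches are shown for the 3 members and for Asns, because these genes carry the same element and differed in how they varied between the lines. Each is written 5′ to 3′ on the gene's strand, with the matches in capitals.
Slc1a4, chr11:20332670-20332758, minus strand: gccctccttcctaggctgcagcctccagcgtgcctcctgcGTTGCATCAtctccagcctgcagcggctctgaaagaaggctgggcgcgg
Slc7a11, chr3:50443613-50443719, minus strand: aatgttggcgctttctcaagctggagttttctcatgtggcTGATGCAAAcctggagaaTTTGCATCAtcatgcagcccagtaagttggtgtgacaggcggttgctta
Slc7a7, chr14:54417897-54418125, minus strand: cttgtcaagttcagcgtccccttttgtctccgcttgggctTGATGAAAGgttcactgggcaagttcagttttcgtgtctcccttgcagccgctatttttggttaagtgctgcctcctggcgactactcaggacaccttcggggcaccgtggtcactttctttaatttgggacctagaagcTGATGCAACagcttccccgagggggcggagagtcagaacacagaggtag
Asns, chr6:7693184-7693272, minus strand: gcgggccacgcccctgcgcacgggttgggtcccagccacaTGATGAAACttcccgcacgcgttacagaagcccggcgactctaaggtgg
Slc7a11 holds 2 matches on opposite strands, with first bases 66 and 48 bases before the start site, Slc1a4 holds 1 beginning 5 bases before it, and Asns 1 beginning 23 bases before it. Slc7a7 has 2, of which the second begins 1 base before the start used here; a window of another Slc7a7 start holds the same one. Between NDL and Met1, Slc1a4 (-2.22) and Asns (-1.32) were lower in NDL, Slc7a7 (0.59) was higher, and Slc7a11 (-1.04, adjusted p = 0.113) did not pass. A match is a description of the letters and not a binding site.

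Enzymes that make or break down amino acids showed 5 of 39 measured genes higher and 8 lower in NDL than in Met1 (33.3% called, against 19.1% of all genes), 5 higher and 3 lower in NDL than in SSM2 (20.5% against 16.9%), and 7 higher and 4 lower in Met1 than in SSM2 (28.2% against 11.8%). Arg1, arginase, stood at 8.88, 8.53 and 8.58 in NDL, 6.69, 6.57 and 6.70 in Met1, and 7.15, 7.56 and 7.31 in SSM2, highest in NDL without overlap (2.01 over Met1, adjusted p = 6.38e-05; 1.32 over SSM2, adjusted p = 0.000503). Odc1, which turns the arginase product ornithine into putrescine, was highest in Met1, at 11.33, 11.20 and 11.65, against 9.22, 9.26 and 8.71 in NDL and 8.52, 8.97 and 9.07 in SSM2 (NDL minus Met1 -2.33, adjusted p = 0.000201; Met1 minus SSM2 2.54, adjusted p = 0.000223). In the serine pathway, Phgdh, its first enzyme, was lowest in NDL, at 7.45, 7.35 and 7.17, and below 8 in no other array (NDL minus Met1 -2.13, adjusted p = 0.0112; NDL minus SSM2 -2.29, adjusted p = 0.00974). The next enzyme, Psat1, was lowest in SSM2, under NDL by 1.36 (adjusted p = 0.00544) and under Met1 by 1.38 (adjusted p = 0.00604). Mthfd2, the mitochondrial folate enzyme, was lower in NDL than in Met1 (-1.91, adjusted p = 0.00658), and its difference between Met1 and SSM2 (2.83-fold, adjusted p = 0.027) did not pass without NDL replicate 1 or SSM2 replicate 1 or 2 (adjusted p from 0.0527 to 0.0772). Gclc, the catalytic subunit of glutamate-cysteine ligase in glutathione synthesis, was highest in SSM2 (NDL minus SSM2 -2.31, adjusted p = 8.16e-05; Met1 minus SSM2 -1.80, adjusted p = 0.000377), where Slc7a11, the cystine importer of the same pathway, did not pass. Got1, which makes aspartate from glutamate, was lower in Met1 than in SSM2 (-1.48, adjusted p = 0.00684). The 5 enzymes higher in NDL than in Met1 became 3 without NDL replicate 1 or 2 or Met1 replicate 1 or 3 and 2 without Met1 replicate 2, and the 8 lower became 5 without Met1 replicate 1 or 2. Against SSM2, 8 were higher in NDL without NDL replicate 3 and 7 lower without SSM2 replicate 3. The 4 lower in Met1 than in SSM2 became 7 without SSM2 replicate 3.

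**Figure D4:**
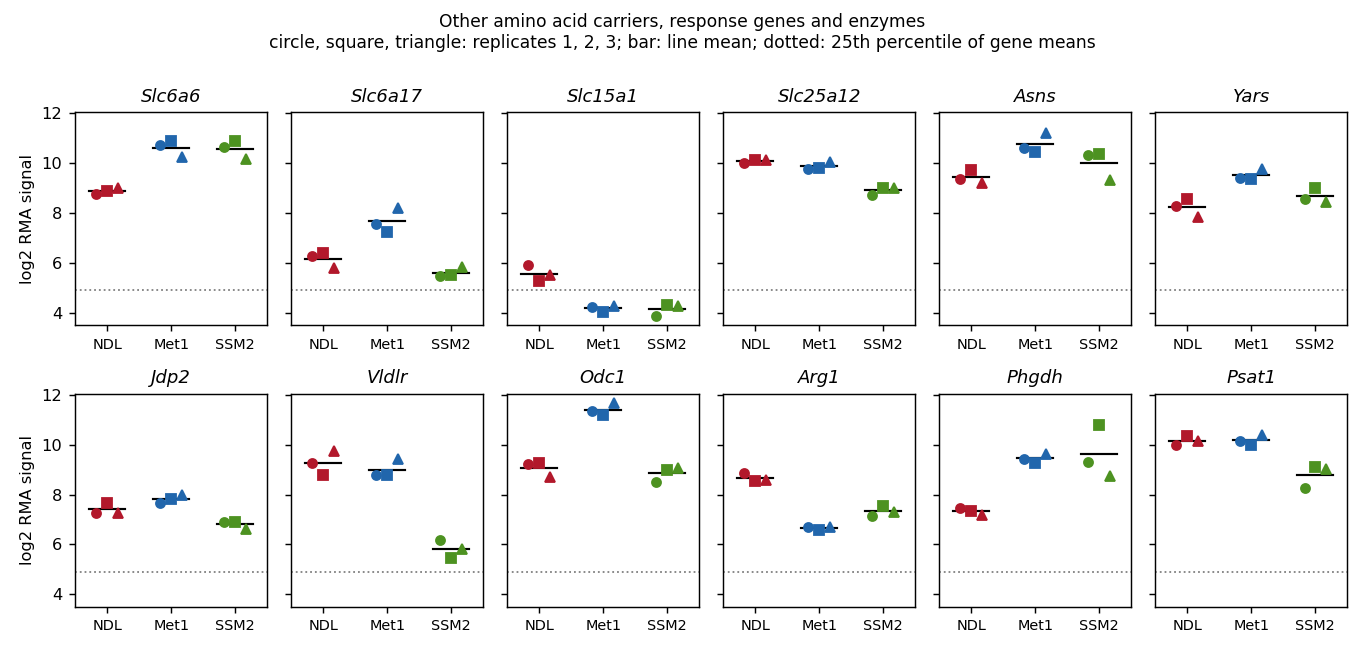
Log2 RMA signal (vertical axis) of 12 genes outside the transporter families in the 3 arrays of NDL, Met1 and SSM2; symbols mark replicates 1 to 3, bars the line mean, and the dotted line the 25th percentile of gene means (4.91). Levels can be compared within a gene only. Slc6a6 and Phgdh are lowest in NDL, Odc1 and Slc6a17 highest in Met1, Arg1 highest in NDL, and Vldlr and Psat1 lowest in SSM2.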

How the data were processed

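The deposited values are log2 signals per feature that the authors made with RMA in oligo 1.40.2, per the submitters' processing notes; quantile normalisation in RMA makes values relative within each array. Scan dates were not used here, so array batches were not examined. Of 35556 features, 21789 had 1 symbol, 1621 several and 12146 none; names were checked through gene IDs against RefSeq (GRCm38.p6; 21698 matched). The feature of highest mean stood for each of 19938 genes, with no filter on signal. A fold is 2 to the power of a log2 difference.

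All 9 arrays were fitted with limma 3.58.1 (R 4.3.3; lmFit, eBayes; 6 residual and 2.42 prior degrees of freedom). Contrasts are two-sided, adjusted by Benjamini-Hochberg over all genes. SE is the model's, SD that of 3 arrays. The procedure was tested on simulated data. Given in full were 6 well-known members, members highest or lowest in a line with a difference of at least 1, and the 6 largest called differences per contrast; other lists give up to 4 called genes per contrast. Members not called are given by range; the values of Slc7a8, Slc38a7, Slc38a9 and Atf4 were added after they were seen. Members and lists were chosen with earlier results of these data known. List entries without a 1-symbol feature were not analysed here. Alternatives were filters on signal, cyclic loess or equal medians, an intensity trend, array weights, a replicate block, fits of 2 lines, a minimum fold of 1.5 (treat), joint adjustment and left-out arrays. Array weights used limma's gene-by-gene method. Figures used matplotlib 3.10.9 and pandas 2.3.3.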

Additional observations from a re-analysis of the deposited data

How the results depend on the processing

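Of the 34 called differences of members, 13 passed under every alternative run, 21 were lost under at least 1 and none reversed; 23 passed in every fit with 1 array left out. Filters on signal, cyclic loess, equal medians, array weights and both other ways of treating a gene's features lost none of the calls they could test. A minimum difference of 1.5-fold (treat), a stricter test by design, lost 19. Leaving out NDL replicates 1 and 2 together left 1 NDL array, with no spread of its own. Calls of that fit count among the 13 and 21 above but are not given separately. The labels do not say that the replicate numbers pair the samples, and the deviations from the line means showed no sign of it. Correlations between same-numbered deviations ran from -0.347 to 0.288, and those between differently numbered ones from -0.329 to 0.34. With the replicate block, the members' calls were 6 higher and 8 lower, 6 and 5, and 5 and 3 in the 3 contrasts, against 6 and 8, 6 and 5, and 6 and 3; only Slc38a6 between Met1 and SSM2 was lost (adjusted p = 0.0578). With 3 arrays a line, small differences near background are hard to detect.

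Counts that moved by over 1.5 times are given next. For the members, array weights gave 14 higher and 14 lower in NDL than in Met1, 10 higher in NDL than in SSM2 and 27 by the F-test. Treat gave 3 and 3 for NDL against Met1, 2 lower in NDL than in SSM2, 2 higher and 1 lower in Met1 than in SSM2, and 6 highest or lowest in a line. Only genes at or above the median gave 3 higher in NDL than in Met1 and 1 lower in Met1 than in SSM2. Counts from the fit without NDL replicates 1 and 2 together are not given for any list, since 1 NDL array was left. With 1 array left out, members ranged from 4 to 10 higher in NDL than in Met1, 5 to 10 higher and 3 to 6 lower in NDL than in SSM2, 3 to 7 higher in Met1 than in SSM2, and 8 to 18 highest or lowest in a line.

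For the other carriers higher in NDL than in Met1, both signal filters gave 0, array weights 4, and cyclic loess, the replicate block, the fit of 2 lines, treat and joint adjustment 1 each. Their count higher in NDL than in SSM2 was 1 under both filters and 7 with array weights. Treat gave 1 lower than in Met1, 1 lower than in SSM2 and 1 higher in Met1 than in SSM2. With 1 array left out, 1 to 3 were higher than in Met1 and 2 to 5 higher than in SSM2.

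For the ATF4 response, array weights gave 3 higher and 14 lower in NDL than in Met1, 5 lower in NDL than in SSM2 and 1 lower in Met1 than in SSM2. Treat gave 0 lower in NDL than in Met1, 1 higher and 0 lower than in SSM2, and 1 higher in Met1 than in SSM2. The filters at the 25th percentile and the median gave 2 and 3 lower in NDL than in SSM2, and the fit of 2 lines 2 higher. With 1 array left out, 3 to 9 were lower than in Met1, 2 to 5 higher and 0 to 5 lower than in SSM2, and 3 to 8 higher and 0 to 1 lower in Met1 than in SSM2.

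For the enzymes, array weights gave 12 higher in NDL than in Met1, 7 lower in NDL than in SSM2 and 7 lower in Met1 than in SSM2, and the replicate block 3 higher in NDL than in Met1. Treat gave 2 higher and 2 lower in NDL than in Met1, 1 and 1 against SSM2, and 1 and 1 for Met1 against SSM2. With 1 array left out, 2 to 7 were higher and 5 to 8 lower than in Met1, 4 to 8 higher and 3 to 7 lower than in SSM2, and 3 to 7 lower in Met1 than in SSM2.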

Other observations

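Slc38a1 and Slc38a9 were each measured by a second feature that the comparisons do not use. The second feature of Slc38a1 stood at 5.50, 5.48 and 5.21 in NDL, 7.50, 7.35 and 6.23 in Met1, and 5.78, 4.79 and 7.96 in SSM2. It therefore also put SSM2 replicate 3 above all other arrays. The second feature of Slc38a9, which ranged from 6.02 to 6.47 over the 9 arrays, did not show the lower values of NDL replicates 1 and 2 (6.66 and 6.56) that the feature in use showed.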
